A study of Mus musculus with 20 samples.

Results

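The genes described here are 31 mouse genes of cholesterol and lipid synthesis, chosen by name from a fixed list and mapped from symbol to the Ensembl identifiers of the deposited count table, which holds 55401 genes. They were chosen with earlier results of these data known, so the choice was not independent of the values below. All 31 were found, and all 31 had enough reads to be tested in each of 5 comparisons. They comprise 7 enzymes of the mevalonate pathway (Acat2, Hmgcs1, Mvk, Pmvk, Mvd, Idi1 and Fdps). A further 11 enzymes, grouped as squalene to cholesterol, make squalene (Fdft1) or act after it (Sqle, Lss, Cyp51, Tm7sf2, Msmo1, Nsdhl, Hsd17b7, Ebp, Sc5d and Dhcr7). The others are 3 regulators of sterol synthesis (Insig1, Srebf1 and Srebf2), 4 genes of fatty acid synthesis (Fasn, Scd1, Scd2 and Elovl6) and 6 genes of sterol transport and turnover (Stard4, Abca1, Abcg1, Apoe, Lrp8 and Cyp46a1). In build GRCm38 the genes that the results turn on include Dhcr7 at chr7:143823145-143848410, Mvd at chr8:122433601-122443422, Hmgcs1 at chr13:119690379-119708260, Cyp51 at chr5:4081145-4104746, Lrp8 at chr4:107802261-107876840 and Abca1 at chr4:53030787-53159895, and the desaturase genes Scd2 and Scd1 are neighbours at chr19:44293674-44306864 and chr19:44394455-44407879.

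RNA of the cerebellum was sequenced in 20 C57BL/6J mice, with 1 mouse per library. SCA7 140Q/5Q knock-in mice model spinocerebellar ataxia type 7, a polyglutamine disease in which an expanded CAG repeat in Atxn7 leads to degeneration of the cerebellum and retina; they carry 1 mutant allele of 140 glutamines and 1 normal allele of 5. The vector AAV PHP.eB, which crosses the blood-brain barrier after injection into the blood, carried a short hairpin RNA under the H1 promoter, either shA4, directed at the expanded CAG repeat, or the scrambled control shSCR, together with eGFP under the CMV promoter. The 5 groups are labelled by week, and the vector was given before then. Those of 9 weeks were WT mice given AAV-shA4 (n = 3) and untreated WT mice (n = 3). Those of 25 weeks were SCA7 mice given AAV-shA4 (n = 5), SCA7 mice given AAV-shSCR (n = 5) and untreated WT mice (n = 4). Whether these weeks are those of age or of time after injection is left unsaid in the labels. The paper counts the time of its cerebellar RNA sequencing from the injection. The interval it gives for the SCA7 mice is somewhat shorter than the week of their label. By its intervals and its age at injection, the mice given vector were older than their labelled weeks. It describes the untreated WT mice set against the SCA7 mice as matched in age. Weeks below are those of the labels and should not be read as age. By the paper's methods, untreated mice were injected with saline in place of vector. The WT mice of 25 weeks received no vector, so the SCA7 groups differ from them in both genotype and vector, and these cannot be told apart. Each library holds the RNA of the whole cerebellum, with all its cell types.

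Cholesterol in the brain is made locally, because the blood-brain barrier keeps out the cholesterol of the blood. Synthesis runs from acetyl-CoA through mevalonate to squalene, and from there through lanosterol to cholesterol. Oligodendrocytes make much of it for myelin, astrocytes supply neurons with cholesterol bound to ApoE, and neurons dispose of the excess by converting it to 24S-hydroxycholesterol with the enzyme encoded by Cyp46a1. When sterols in the endoplasmic reticulum are low, SREBP-2 (encoded by Srebf2) is released from its complex with SCAP and INSIG proteins and activates the genes of the pathway together with the factor NF-Y. When oxysterols are abundant, the liver X receptors activate genes of sterol efflux such as Abca1 and Abcg1, and also Srebf1.

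The libraries held between 31465586 and 54570503 reads on genes. Levels are given as CPM, the reads of a gene scaled by the size of the library, with 1 TMM scaling over the 20 libraries, and fold changes come from edgeR's quasi-likelihood test, with p-values adjusted by the Benjamini-Hochberg method over all protein-coding genes tested. Adjusted p-values under 0.05 count as calls. The RNA of Atxn7, with both alleles counted together, lay between 37.6 and 53.4 CPM in the 20 libraries. It was called higher in untreated WT mice of 25 than of 9 weeks (log2 fold change 0.28 ± 0.06 (SE), adjusted p = 0.00596). Between AAV-shA4 and AAV-shSCR it was not called (log2 fold change -0.04 ± 0.05 (SE), adjusted p = 0.84). The paper measured the lowering of mutant ATXN7 by shA4 as protein, with normal ATXN7 not affected in the cerebellum. Its blots were made sooner after injection than these SCA7 libraries, and these counts do not separate the alleles. Of 18 oligodendrocyte markers, 14 Purkinje cell markers, 12 granule cell markers and 14 markers of Bergmann glia and astrocytes, none was at 0 reads in all libraries of a comparison. The summed choroid plexus and ependyma markers ranged from 60.6 to 3852 CPM between single libraries, and a difference in a bulk library can come from fewer cells of a type or from less RNA per cell, which cannot be told apart here.

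Per kilobase of transcript, the members spanned a wide range in untreated WT cerebellum at 25 weeks. Apoe, which encodes the main apolipoprotein of the brain, was at 1110 CPM per kb. Scd2, a stearoyl-CoA desaturase that makes monounsaturated fatty acids, was at 338 CPM per kb. All other members lay between 0.205 and 60.3 CPM per kb. The highest of these, Stard4, was scaled by a transcript length of 941 bases, while its annotated exons cover 5586 bases, so its place is uncertain. Within the mevalonate pathway the level fell from 32.2 CPM per kb for Hmgcs1, which encodes HMG-CoA synthase, to 1.26 for Fdps and 0.205 for Idi1. The enzymes from squalene to cholesterol lay closer together, from 6.78 CPM per kb for Hsd17b7 to 24.2 for Sc5d. Fdps, which makes farnesyl diphosphate, and Idi1, which isomerizes isopentenyl diphosphate, have pseudogenes and overlapping genes: 26.3% and 25.4% of their 49-base windows also occur in transcripts of other genes, so reads may have been left uncounted and their low levels are uncertain. The same share was 39.3% for Acat2 (shared with Acat3 and Tcp1), 26.8% for Fdft1 (shared mainly with Ctsb on the other strand), 11.6% for Hmgcs1 and 9.91% for Tm7sf2, and below 5% for the other 25 members.

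**Figure D1:**
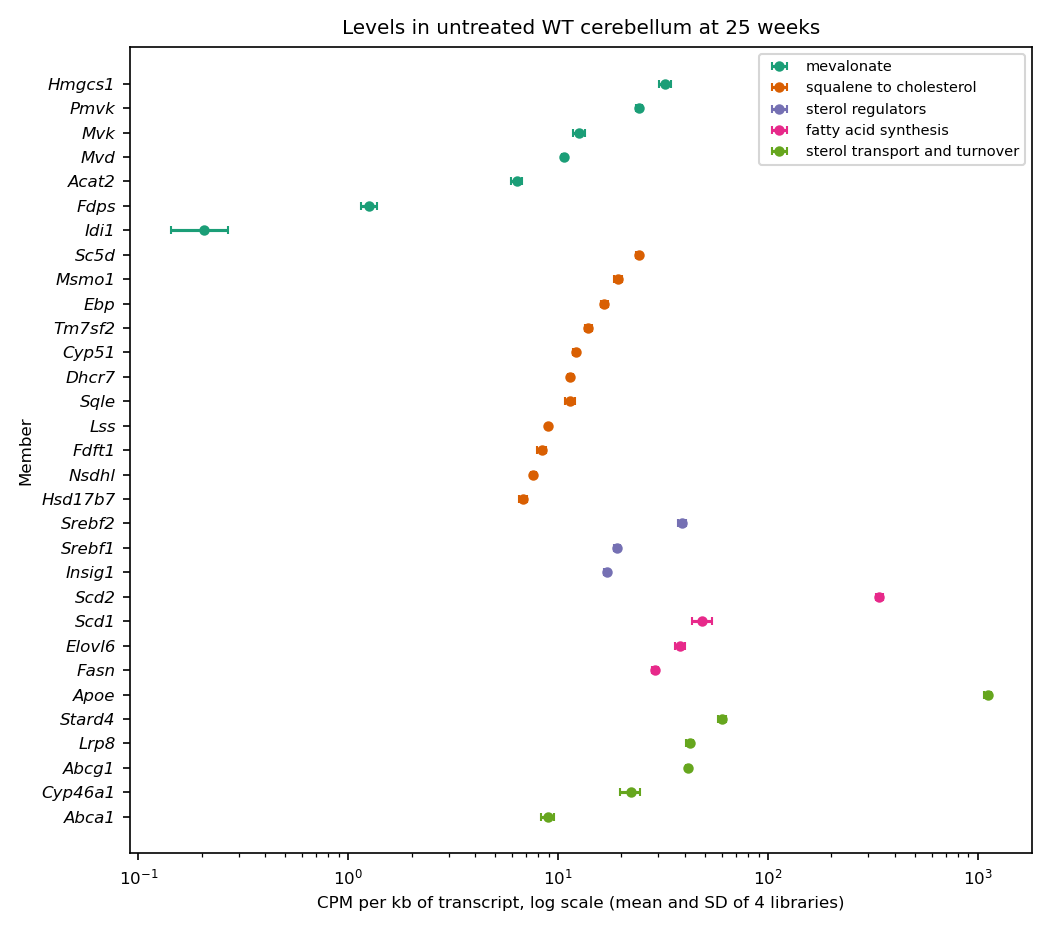
Level of each member in untreated WT cerebellum at 25 weeks, in CPM per kilobase of transcript on a log axis, grouped by role; points are means and bars the SD of 4 libraries. Apoe (1110) and Scd2 (338) stand above all other members, and Idi1 (0.205) is the lowest.

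The most calls among the members came between untreated WT mice of 25 and of 9 weeks. At 25 weeks 13 members were lower and 2 were higher than at 9 weeks, against 11.1% of the 14875 genes tested called lower and 11.8% called higher. The lower members were Dhcr7, Mvd, Insig1, Hmgcs1, Msmo1, Sqle, Nsdhl, Acat2, Fdft1, Cyp51, Ebp, Pmvk and Sc5d, and the higher ones Abca1 and Srebf1. All 18 sterol synthesis enzymes had a negative log2 fold change and 12 of them were called, with a median of -0.30 beside 0.0059 for all genes tested. The groups did not overlap for 15 of the 18, all lower, where 17.1% of all genes tested were lower without overlap. Summed over the 18 enzymes, the level was 675, 672 and 736 CPM in the 9-week mice and 581, 544, 568 and 561 CPM in the 25-week mice. Week and time of collection, and any sequencing run that went with it, cannot be told apart in these libraries. By the paper, the untreated WT mice of 25 weeks were males. The sex of those of 9 weeks is not given in the sources used here, so a difference of sex cannot be told apart either.

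The mevalonate pathway had the lowest median, -0.41, and its 7 genes were all lower without overlap between the groups. This median is the value of Fdps, which, like Idi1, had few reads. Hmgcs1, which condenses acetoacetyl-CoA and acetyl-CoA, was at 142, 142 and 162 CPM at 9 weeks and at 117, 100, 109 and 106 CPM at 25 weeks. Its log2 fold change was -0.45 ± 0.06 (SE), with an adjusted p of 0.00112. Mvd, the decarboxylase that yields isopentenyl diphosphate, was at 25.9, 24.7 and 25.2 CPM and then at 18.7, 18.6, 19.1 and 18.1 CPM, a narrow spread within each group and a clear gap between them (log2 fold change -0.44 ± 0.05 (SE), adjusted p = 0.000432). Acat2 (-0.38 ± 0.09) and Pmvk (-0.23 ± 0.06), encoding the thiolase and phosphomevalonate kinase, were called as well. Mvk, mevalonate kinase, missed the threshold at an adjusted p of 0.051 (-0.24 ± 0.08), and Fdps and Idi1 were not called at -0.41 ± 0.15 and -0.60 ± 0.25.

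Of the 11 enzymes from squalene to cholesterol, 8 were called lower. Dhcr7, the 7-dehydrocholesterol reductase, had the smallest p of all members: 41.3, 40.9 and 42.0 CPM at 9 weeks against 31, 29.7, 31.2 and 29.5 CPM at 25 weeks, a log2 fold change of -0.45 ± 0.04 (SE) and an adjusted p of 0.00018. Sqle, squalene epoxidase, was at 42.4, 40.1 and 49.7 CPM and then at 31.4, 29.6, 32.7 and 29.1 CPM (-0.52 ± 0.07, adjusted p = 0.00142). Msmo1, the C4-methylsterol oxidase, was at 54.7, 49.1 and 60.9 CPM and then at 41.4, 38.0, 38.0 and 39.8 CPM (-0.48 ± 0.07, adjusted p = 0.00132). In all 3 genes every 25-week mouse lay below every 9-week mouse. Nsdhl, which acts with Msmo1 in removing the C4 methyl groups, was at 20.3, 20.4 and 21.7 CPM and then at 16.8, 17.0, 16.1 and 16 CPM (-0.34 ± 0.05, adjusted p = 0.00255). Fdft1, Cyp51, Ebp and Sc5d were called with smaller differences, from -0.26 to -0.11. The enzymes were not lowered evenly: Lss, which closes the ring to lanosterol, was at 40.9 to 43.3 CPM at 9 weeks and at 40.7 to 42.1 CPM at 25 weeks, with a log2 fold change of -0.01 and a 95% interval from -0.08 to 0.07. Tm7sf2 and Hsd17b7 were not called, at -0.11 ± 0.07 and -0.14 ± 0.07.

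Among the regulators, Insig1, the anchor that holds SCAP and SREBP in the endoplasmic reticulum and itself a target of SREBP, went the way of the enzymes, from 55.6, 56.5 and 59.4 CPM to 47.7, 44.3, 45.4 and 45.6 CPM (log2 fold change -0.32 ± 0.04 (SE), adjusted p = 0.000926). The level of Srebf2, the factor that activates them, was 183 ± 13.1 CPM (SD, n = 3) at 9 weeks and 177 ± 7.31 CPM (n = 4) at 25 weeks, with a 95% interval of its log2 fold change from -0.15 to 0.06. Srebf1, which encodes the SREBP of fatty acid synthesis, was higher by 0.16 ± 0.04 (adjusted p = 0.0223), from 68.9 to 76.0 CPM up to 77.9 to 84.2 CPM. None of the 4 fatty acid genes was called: Fasn -0.10 ± 0.04, Scd2 -0.06 ± 0.04, Scd1 0.11 ± 0.07 and Elovl6 0.10 ± 0.04.

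Abca1, the pump that loads cholesterol onto ApoE, moved in the opposite direction to the enzymes. It was at 72.4, 75.5 and 60.3 CPM at 9 weeks and at 89.4, 91.4, 101 and 84.4 CPM at 25 weeks, with no overlap (log2 fold change 0.40 ± 0.08 (SE), adjusted p = 0.00667). Abcg1, another sterol efflux pump and another target of the liver X receptors, was not called (-0.06 ± 0.04), and neither were Apoe (-0.02 ± 0.05), the sterol carrier Stard4 (-0.0044 ± 0.04), the ApoE receptor Lrp8 (0.05 ± 0.04) or Cyp46a1 (-0.19 ± 0.08, adjusted p = 0.0955).

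At a fold limit of 1.3 as well, 6 members remained lower (Dhcr7, Mvd, Hmgcs1, Msmo1, Sqle and Acat2) and 1 higher (Abca1), where 1.91% and 3.23% of all genes did. Of 42 other genes of these pathways that were tested, 6 were called lower and 5 higher. Among those with the smallest p were the very long chain elongase Elovl1 (-0.41 ± 0.07) and the lipoprotein receptors Vldlr (0.18 ± 0.03) and Lrp1 (0.22 ± 0.04).

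Replicate 3 of the untreated 9-week mice had the highest level of its group in 14 of the 18 enzymes. Without it, 10 members were called lower and 2 higher, 17 of the 18 enzymes were lower in sign and their median was -0.27. Cyp51 (-0.13, adjusted p = 0.0607) and Ebp (-0.16, adjusted p = 0.0783) were no longer called. Calls also depended on single libraries for Pmvk (lost without replicate 2 at 9 weeks or replicate 3 at 25 weeks), for Cyp51 and Ebp (lost without replicate 2 at 25 weeks), for Srebf1 (lost without replicate 2 at 9 weeks, or replicates 3 or 4 at 25 weeks) and for Sc5d (lost in 6 of 7 such fits, all but that without replicate 1 at 25 weeks). Markers of several cell types also differed between the weeks, most of them in the direction of the enzymes and those of microglia in the other. Of these, 12 of 18 oligodendrocyte markers were called lower and none higher, and their summed level was 9508 to 9960 CPM at 9 weeks and 6961 to 8336 CPM at 25 weeks. Of 12 granule cell markers 4 were called lower and none higher, with sums of 7877 to 8808 CPM at 9 weeks and 6430 to 7584 CPM at 25 weeks. Of 12 meningeal and vessel markers 4 were called lower and 1 higher (539 to 560 and 475 to 525 CPM), and of 6 markers of oligodendrocyte precursors 2 were called lower (92.9 to 105.5 and 77.2 to 90.1 CPM). Of 12 microglial markers 4 were called higher, with sums of 214 to 226 and 240 to 272 CPM. In none of these 5 lists did the sums of the groups overlap. Of 14 Purkinje cell markers 2 were called higher and none lower, of 14 markers of Bergmann glia and astrocytes 1 in each direction, and of 10 choroid plexus and ependyma markers none. The part of these cell types in the result was not tested.

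**Figure D2:**
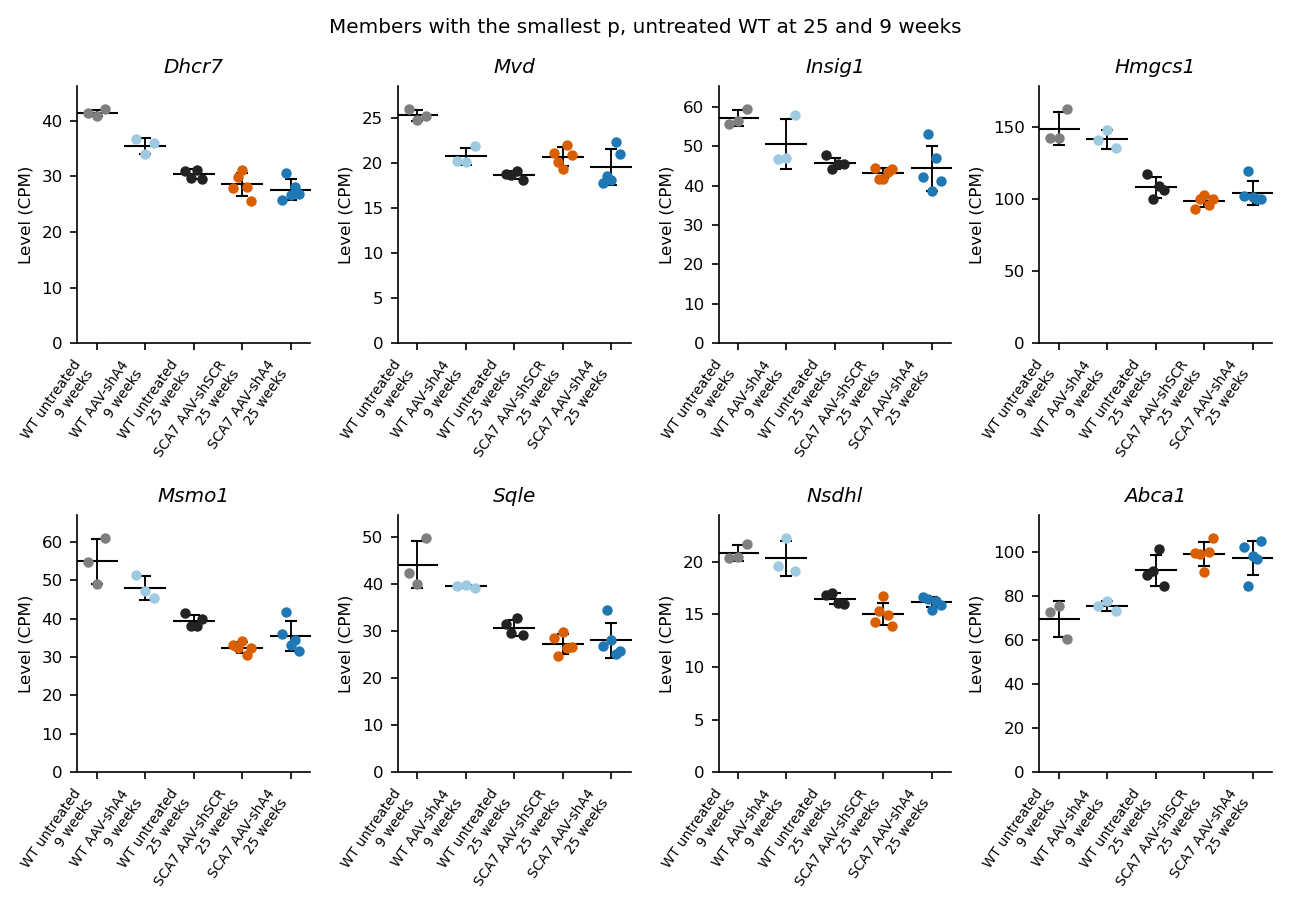
Level in CPM of the 8 members with the smallest p between untreated WT mice of 25 and 9 weeks, in each of the 20 libraries; points are mice, horizontal lines the group means and bars the SD. For 7 genes all 4 untreated WT mice of 25 weeks lie below all 3 of 9 weeks, and for Abca1 they lie above.

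**Figure D3:**
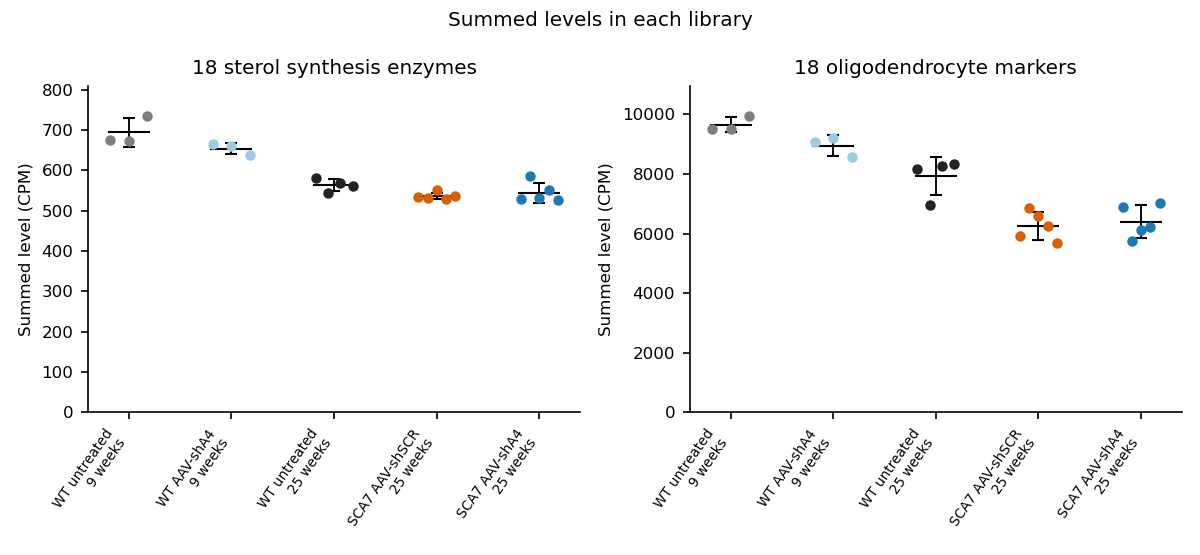
Summed level in CPM of the 18 sterol synthesis enzymes (left) and of 18 oligodendrocyte markers (right) in each of the 20 libraries; points are mice, horizontal lines the group means and bars the SD. The enzymes sum to 672 to 736 CPM in untreated WT mice of 9 weeks and to 526 to 586 CPM in the 14 mice of 25 weeks, and the markers are also higher at 9 weeks.

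The promoters of the members were searched for the letters of 2 motifs known from SREBP target genes. RefSeq promoter windows of build GRCm38.p6, from 250 bases before to 50 after the start, were found for 24 of the 31 members, and not for Fdft1, Fdps, Sqle, Scd1, Scd2, Stard4 and Abcg1. The NF-Y box, CCAAT on either strand, was present in at least 1 window of 19 of the 24 members: in 14 of 15 sterol synthesis enzymes, Acat2 being the one without, and in 5 of 9 others. At least 1 window held it in 41.1% of all genes with a promoter window, and 37.4% of all 32851 windows held it. Mvk had 5 boxes, Hmgcs1 and Nsdhl 4, and Msmo1, Hsd17b7 and Fasn 3. Dhcr7 held boxes only in its window at chr7:143829964-143830263, inside the gene, and none in those nearer its annotated start. Pmvk held 1 box at chr3:89454291-89454590 and none at chr3:89459321-89459620. Abca1, Apoe, Lrp8 and Elovl6 had none in these windows. The core of the sterol regulatory element, TCACNCCAC on either strand, was found only in Hmgcs1 among the 24, and in 1.24% of all windows; it shared no base with a CCAAT box there. A match of letters does not show that a factor binds. Whether SREBP or NF-Y had a part in the differences between the weeks was not tested.

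The 150 bases just before the RefSeq start are shown, on the strand of the gene, for 4 called enzymes and for Abca1, which moved the other way, with the matched motifs in capitals. They lie at chr13:119690201-119690350 on the plus strand (Hmgcs1), chr8:122443423-122443572 on the minus strand (Mvd), chrX:72918371-72918520 on the plus strand (Nsdhl), chrX:8193513-8193662 on the minus strand (Ebp) and chr4:53159896-53160045 on the minus strand (Abca1), each outside the annotated extent of its gene.
Hmgcs1: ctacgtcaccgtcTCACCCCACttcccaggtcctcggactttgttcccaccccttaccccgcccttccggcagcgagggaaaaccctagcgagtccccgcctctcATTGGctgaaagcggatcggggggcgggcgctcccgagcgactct
Mvd: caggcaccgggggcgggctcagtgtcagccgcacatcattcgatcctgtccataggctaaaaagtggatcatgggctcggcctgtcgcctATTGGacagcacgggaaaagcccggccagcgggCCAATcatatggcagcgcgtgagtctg
Nsdhl: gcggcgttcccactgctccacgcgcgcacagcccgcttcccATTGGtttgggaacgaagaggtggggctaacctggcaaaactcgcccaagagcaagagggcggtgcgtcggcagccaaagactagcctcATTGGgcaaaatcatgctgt
Ebp: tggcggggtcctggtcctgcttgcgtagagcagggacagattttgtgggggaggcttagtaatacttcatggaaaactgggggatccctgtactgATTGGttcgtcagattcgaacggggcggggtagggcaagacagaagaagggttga
Abca1: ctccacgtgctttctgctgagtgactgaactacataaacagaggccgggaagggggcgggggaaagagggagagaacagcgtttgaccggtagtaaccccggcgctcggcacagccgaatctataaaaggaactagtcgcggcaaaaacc
Hmgcs1 shows the sterol regulatory element core and 1 CCAAT box read from the other strand, Mvd and Nsdhl 2 boxes each, Ebp 1, and Abca1 no match. The box did not separate the members by direction: Srebf1, the other member called higher, held 1 in 2 of its 3 windows, and Acat2, which was called lower, held none. Of the enzymes that were not called, Mvk held 5, Hsd17b7 3, Idi1 2, and Lss and Tm7sf2 1 each, while Fdps had no window.

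In WT mice at 9 weeks, AAV-shA4 was compared with the untreated mice, a test of the effect of vector and hairpin without the disease. No member was called by edgeR, and none by DESeq2; 0.0679% of the 14733 genes tested were called by edgeR. At an unadjusted p under 0.05 there were 7 members of 31, beside 11.1% of all genes tested: Mvd, Dhcr7, Stard4, Msmo1, Tm7sf2 and Insig1 with lower values and Scd1 with a higher one. Mvd, with the smallest p, was at 20.2, 20.1 and 21.8 CPM with AAV-shA4 and at 25.9, 24.7 and 25.2 CPM without, and the groups did not overlap (log2 fold change -0.29 ± 0.07 (SE), adjusted p = 0.187). Dhcr7 was at 36.7, 33.9 and 35.9 CPM against 41.3, 40.9 and 42.0 CPM, also without overlap (-0.22 ± 0.06, adjusted p = 0.223). Of the 18 enzymes 4 were lower without overlap, these and Fdft1 (-0.13 ± 0.07) and Sqle (-0.16 ± 0.08), where 8.50% of all genes tested were.

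Of the 18 sterol synthesis enzymes, 16 had a negative log2 fold change in this comparison, where 50.1% of all genes did, with a median of -0.10. Without replicate 3 of the untreated mice, the library that was highest in 14 enzymes, 12 of 18 were negative and the median was -0.03. Sc5d (0.02 ± 0.05) and Fdps (0.11 ± 0.18) had positive values. The fatty acid genes Scd1 (0.15 ± 0.05), Scd2 (0.09 ± 0.05) and Elovl6 (0.09 ± 0.05) had positive values and Fasn a negative one (-0.03 ± 0.05), and Scd1 was at 254, 236 and 237 CPM against 215, 224 and 215 CPM. None of the 42 other pathway genes was called. The libraries of the AAV-shA4 mice were shallower, at 36245752 to 39208298 reads against 47455917 to 49212593. Summed oligodendrocyte markers were 8556 to 9209 CPM with AAV-shA4 and 9508 to 9960 CPM without. Summed markers of Bergmann glia and astrocytes lay the other way, at 6325 to 6619 CPM with AAV-shA4 and 6014 to 6196 CPM without, with 12 of the 14 positive in sign. None of either list was called, and their part in these values was not tested.

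In SCA7 mice given AAV-shSCR, 6 members were lower than in untreated WT mice of 25 weeks and none was higher, against 8.65% and 6.89% of the 14862 genes tested. They were Lrp8, Cyp51, Scd2, Msmo1, Scd1 and Cyp46a1, from 3 of the 5 roles, and none passed a fold of 1.3, as 4.02% of all genes did. The differences were between -0.32 and -0.18 on the log2 scale. Of the 18 sterol synthesis enzymes only Cyp51 and Msmo1 were called, 11 were lower in sign and the median was -0.04, beside 0.0017 for all genes tested.

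Lrp8, a receptor for ApoE and reelin, had the smallest p. It was at 102, 106, 104, 103 and 109 CPM in the SCA7 AAV-shSCR mice and at 120, 132, 127 and 127 CPM in the WT mice, with no overlap (log2 fold change -0.27 ± 0.03 (SE), adjusted p = 1.79e-05). Cyp51, the lanosterol demethylase, was at 36.7, 37.9, 41.2, 36.5 and 38.2 CPM against 46.7, 46.3, 48.6 and 48.3 CPM (-0.32 ± 0.05, adjusted p = 0.000382). Msmo1, a later enzyme of the same branch, was at 33.0, 32.3, 34.1, 30.4 and 32.4 CPM against 41.4, 38.0, 38.0 and 39.8 CPM (-0.27 ± 0.06, adjusted p = 0.00706). Every SCA7 AAV-shSCR mouse was below every WT mouse for these 3 genes.

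All 4 fatty acid genes had negative values, and the 2 desaturases were called. Scd2 was at 1720, 1590, 1600, 1580 and 1650 CPM against 1940, 1770, 1840 and 1830 CPM (log2 fold change -0.18 ± 0.04 (SE), adjusted p = 0.00271). Scd1 was at 208, 199, 200, 199 and 202 CPM against 269, 209, 231 and 230 CPM (-0.22 ± 0.06, adjusted p = 0.0123), where 1 WT mouse lay far above the other WT mice and another lay close to the SCA7 mice. Scd1 and Scd2 share 4.68% and 4.1% of their windows with genes of their family. Fasn (-0.08 ± 0.04) and Elovl6 (-0.05 ± 0.04) were not called.

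Cyp46a1, the neuronal cholesterol 24-hydroxylase, was at 39.5, 38.4, 40.5, 39.9 and 39.0 CPM against 54.5, 45.6, 42.7 and 45.5 CPM (log2 fold change -0.26 ± 0.08 (SE), adjusted p = 0.0338). WT replicate 1, at 54.5 CPM, set much of the size: without it the value was -0.18 with an adjusted p of 0.132. The call was also lost without SCA7 AAV-shSCR replicates 1, 2, 4 or 5 and without WT replicates 2 or 4, at adjusted p from 0.051 to 0.0714. Members that were not called included Acat2 (0.16 ± 0.06, adjusted p = 0.0801), Hmgcs1 (-0.14 ± 0.05, adjusted p = 0.0896), Srebf1 (0.16 ± 0.07, adjusted p = 0.129) and Mvd (0.15 ± 0.07, adjusted p = 0.141).

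Of the 42 other pathway genes, 6 were called lower and 3 higher. Among those with the smallest p were the sterol 27-hydroxylase Cyp27a1 (-0.32 ± 0.05), the elongase Elovl5 (-0.19 ± 0.03), the desaturase Fads1 (-0.17 ± 0.03) and the SREBP-cleaving site-1 protease Mbtps1 (0.11 ± 0.03, lost without WT replicates 3 or 4). Cell type markers moved in this comparison as well. Of 14 Purkinje cell markers 13 were called lower (sums of 8586 to 9502 CPM against 12010 to 13480), of 18 oligodendrocyte markers 9 (5697 to 6848 against 6961 to 8336) and of 14 markers of Bergmann glia and astrocytes 6 (5195 to 5618 against 5867 to 6135). Of 12 granule cell markers 3 were called lower and 3 higher. Their part in the values of the members was not tested.

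In SCA7 mice given AAV-shA4, 4 members were lower than in the same untreated WT mice and 1 was higher, against 8.11% and 5.47% of the 14862 genes tested. Lrp8 was at 100, 104, 108, 106 and 104 CPM (log2 fold change -0.27 ± 0.03 (SE), adjusted p = 1.68e-05) and Cyp51 at 37.7, 42.3, 40.4, 43.4 and 36.2 CPM (-0.25 ± 0.05, adjusted p = 0.00315), both below every WT mouse. Scd2, at 1630, 1770, 1720, 1690 and 1660 CPM (-0.12 ± 0.04, adjusted p = 0.0332), and Scd1, at 225, 190, 209, 208 and 207 CPM (-0.18 ± 0.06, adjusted p = 0.0421), overlapped with the WT mice. Acat2 was higher, at 14.1, 14.2, 14.1, 14.8 and 13.9 CPM against 13.1, 11.5, 11.8 and 12.6 CPM (0.21 ± 0.06, adjusted p = 0.0236), on a gene that shares 39.3% of its windows with other genes.

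Msmo1 (-0.15 ± 0.06, adjusted p = 0.137) and Cyp46a1 (-0.22 ± 0.08, adjusted p = 0.0728) were not called with AAV-shA4, and the intervals of their difference from AAV-shSCR are given with the direct comparison of the 2 groups. The 18 enzymes had a median of -0.03, beside 0.0061 for all genes, with 11 lower in sign. Of the 42 other pathway genes 7 were called lower and 1 higher, led by Fads1 (-0.21 ± 0.03), Cyp27a1 (-0.29 ± 0.05), the ApoJ gene Clu (-0.27 ± 0.05), Apod (0.28 ± 0.06) and the liver X receptor Nr1h2 (-0.16 ± 0.04).

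The number of members called in this comparison was sensitive to single libraries. It was 8 without AAV-shA4 replicate 2, the library with the highest sum of the 18 enzymes in its group (586 CPM against 526 to 551 in the others), 3 without AAV-shA4 replicates 4 or 5 or WT replicates 1 or 4, and 2 without WT replicate 3. Lrp8 and Cyp51 were called in all 14 fits that left out a library. Acat2 was lost without WT replicates 2 or 3, Scd2 without AAV-shA4 replicates 1, 4 or 5 or WT replicates 1, 3 or 4, and Scd1 in 11 of the 14 fits, all but those without AAV-shA4 replicate 1, AAV-shSCR replicate 1 or WT replicate 2. The same marker lists moved: 13 of 14 Purkinje cell, 9 of 18 oligodendrocyte and 7 of 14 Bergmann glia and astrocyte markers were called lower, and their part was not tested.

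**Figure D4:**
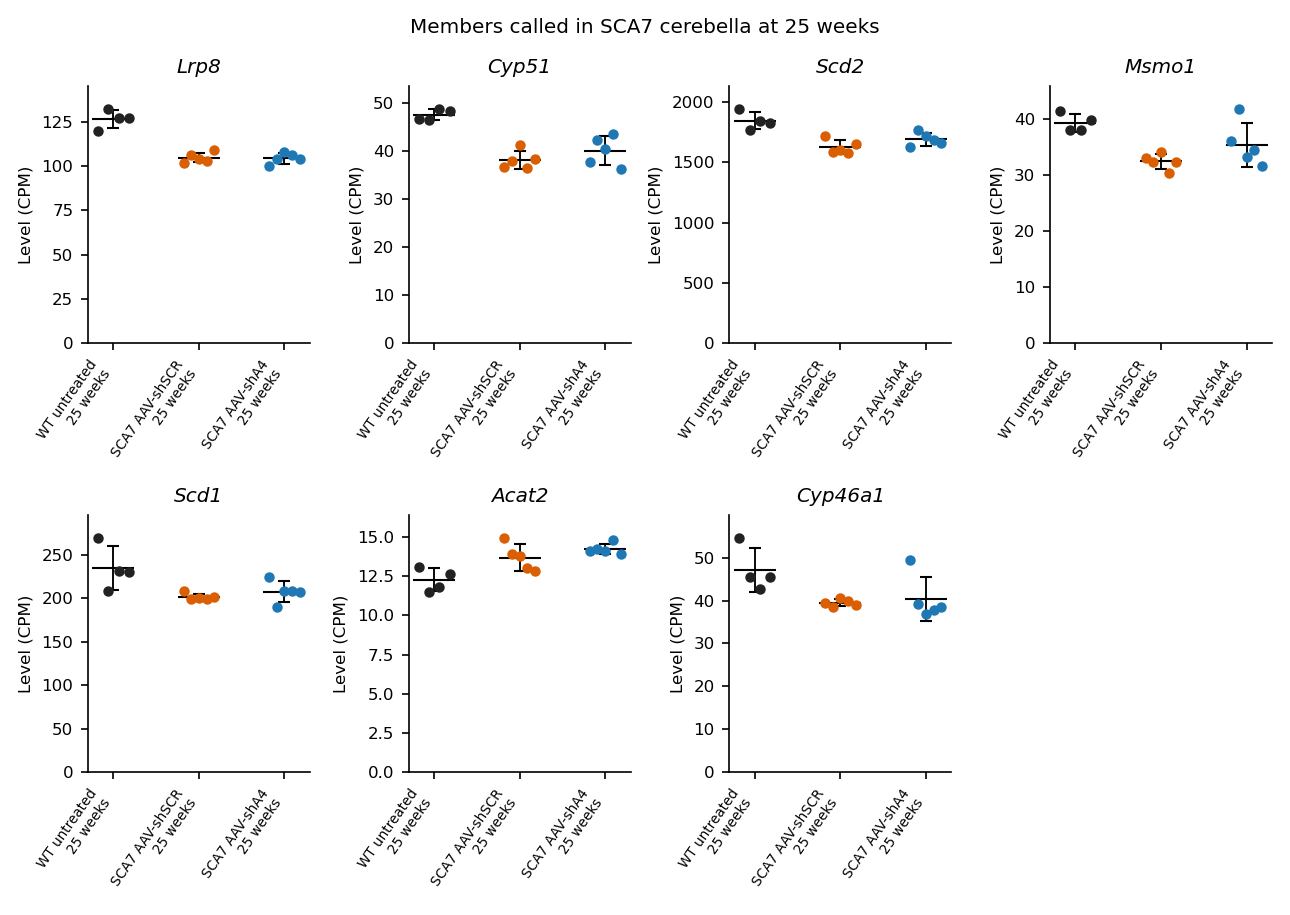
Level in CPM of the 7 members called in at least 1 SCA7 group against untreated WT mice, in the 14 libraries of 25 weeks; points are mice, horizontal lines the group means and bars the SD. For Lrp8 and Cyp51 all 10 SCA7 mice lie below all 4 WT mice, and the 2 SCA7 groups overlap for every gene.

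Between the SCA7 groups, AAV-shA4 against AAV-shSCR, a comparison of the hairpins within the disease model, no member was called, and 0% of the 14862 genes tested were; DESeq2 called none of the members and 23 of all genes. At an unadjusted p under 0.05 there was 1 member, beside 8.22% of all genes tested. This was Tm7sf2, a sterol C14-reductase, at 18.1, 18.6, 18.3, 17.2 and 19.3 CPM with AAV-shA4 and at 21.2, 20, 19.5, 21.8 and 19.0 CPM with AAV-shSCR, overlapping ranges (log2 fold change -0.15 ± 0.05 (SE), adjusted p = 0.514). Of the 31 members 16 had positive and 15 negative values. For no member did the 2 groups separate without overlap, as they did higher for 0.774% and lower for 0.720% of all genes tested.

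The 95% intervals show what this comparison could have seen. For Lrp8 the interval of the log2 difference was -0.06 to 0.06, for Scd2 -0.01 to 0.12, for Cyp51 -0.03 to 0.16 and for Scd1 -0.06 to 0.15. For Msmo1 it was 0.01 to 0.24 with an unadjusted p of 0.0568, the interval being built from the standard error alone, and for Cyp46a1 -0.11 to 0.18. Idi1, with the fewest reads of all members, had the widest interval, -0.12 to 0.94. Of the 42 other pathway genes none was called.

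Set side by side, the comparisons differed in which roles were called. Comparisons with a common group share its libraries, so their values are not independent. The untreated WT mice of 25 weeks are set against those of 9 weeks and are also the control of both SCA7 comparisons. A low value in these mice thus lowers the value by week and raises both SCA7 values. A high value does the reverse. In untreated WT mice of 25 against 9 weeks the enzymes of sterol synthesis led, with medians of -0.41 for the mevalonate pathway and -0.20 from squalene to cholesterol, and 0.02 for fatty acid synthesis. In SCA7 AAV-shSCR against WT mice the medians were 0.12, -0.09 and -0.13, and in SCA7 AAV-shA4 against WT mice 0.07, -0.09 and -0.10. Cyp51 was called lower in all 3, at -0.18, -0.32 and -0.25, and Msmo1 by week and with AAV-shSCR, at -0.48 and -0.27. Acat2 had -0.38 by week and 0.16 and 0.21 in the SCA7 groups, and Abca1 had 0.40 by week and 0.11 and 0.09 in the SCA7 groups. No test of the differences between these comparisons was made.

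**Figure D5:**
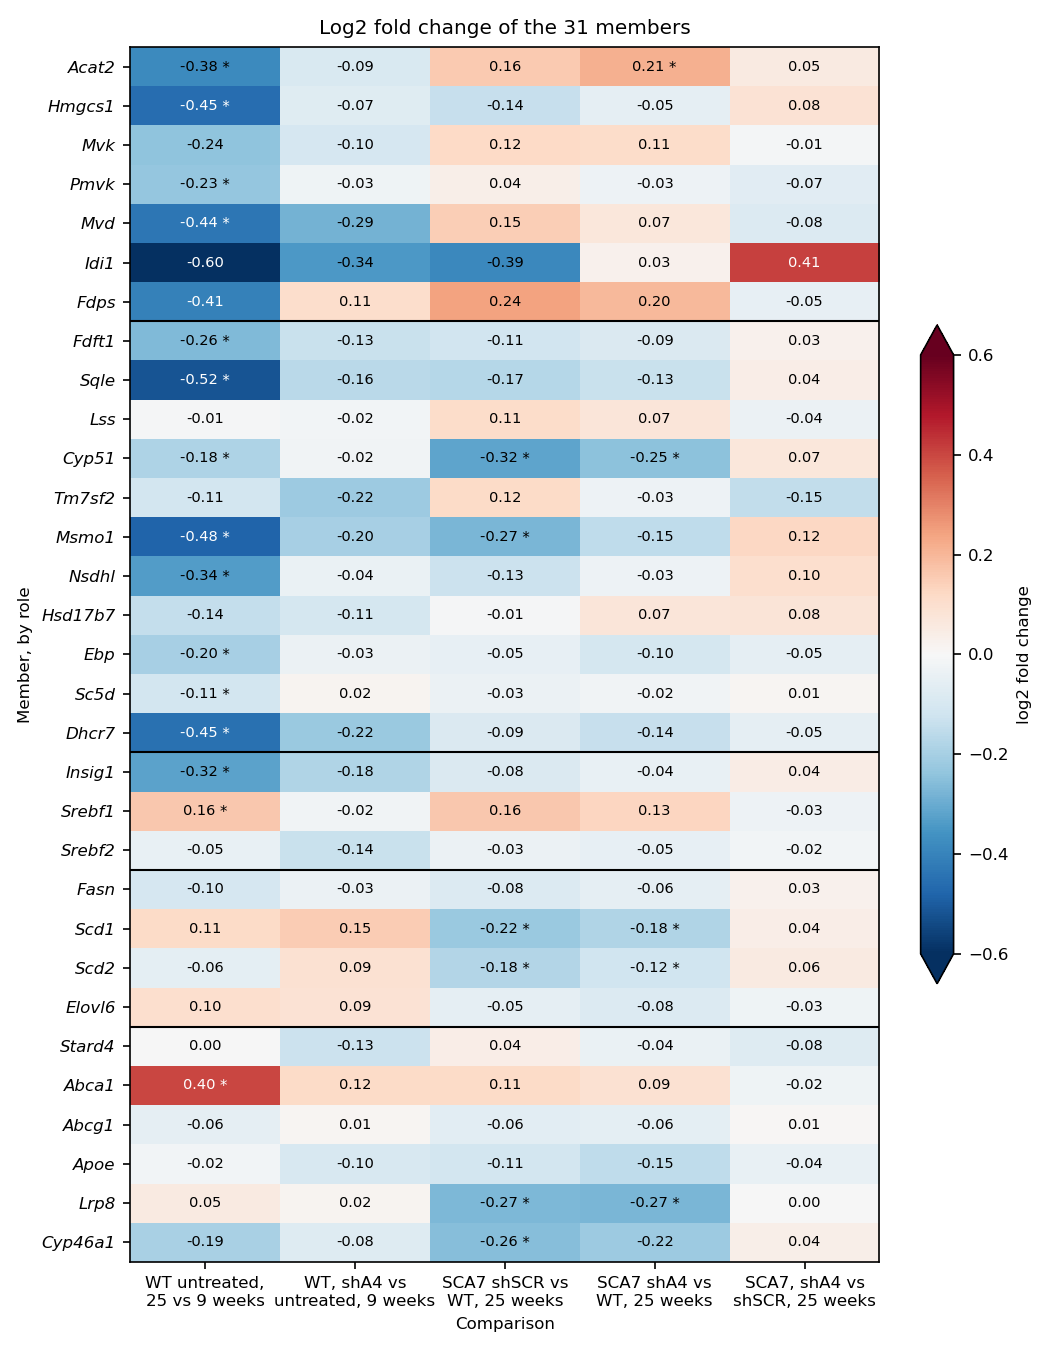
Log2 fold change of each of the 31 members (rows, grouped by role in the order of the pathway) in the 5 comparisons (columns); blue is lower, red is higher and a star marks an adjusted p under 0.05. The column of untreated WT mice at 25 against 9 weeks is blue for all 18 sterol synthesis enzymes, and the column of AAV-shA4 against AAV-shSCR holds no star.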

How the data were processed

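Cerebellar RNA of 20 mice was sequenced as stranded mRNA libraries, and groups were taken from the labels. The deposited values are raw read counts per gene: the authors trimmed reads with cutadapt 1.10, removed ribosomal RNA with Bowtie2 2.2.8, mapped to mm10 with STAR 2.5.3a and counted with HTSeq 0.6.1p1. Whether HTSeq counted by strand is not given in the sources used here. Of the 55401 genes 55141 are in GENCODE M21, and the 21897 protein-coding ones entered edgeR 4.0.16 under R 4.3.3 (TMM, filterByExpr at min.count 10 and min.total.count 15, quasi-likelihood test, Benjamini-Hochberg adjustment). The 6 libraries of 9 weeks, the 14 of 25 weeks and the 7 untreated WT libraries were fitted separately, and DESeq2 1.42.0 was an alternative. The analysis was tested on simulated data. Intervals are 1.96 SE to either side. Transcript lengths are medians of the basic protein-coding transcripts. The members and gene lists were chosen with earlier results of these data known. Named with values in every mouse were at most 8 called members per comparison, those with the smallest p, and of other pathway genes at most 5 called ones, some of which are not reported here. Same-numbered libraries correlated between -0.22 and 0.54 in their deviations from the group means. The highest values, 0.54 and 0.26, were those of replicates 1 and 2 of SCA7 AAV-shA4 and untreated WT mice of 25 weeks. The labels give replicate numbers but name no pairs, and the libraries were fitted unpaired. A fit with the replicate number as a block is given below. Library pairs of a group differed by 4.72 to 22.7 times the sampling noise (chi-square per degree of freedom), so none was counted as a duplicate.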

Additional observations from a re-analysis of the deposited data

Results flagged for a closer look

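Over 93 combinations of a member and a group of 4 or 5 libraries, 2 had a library far from the others of its group by Dixon's ratio, and chance alone marks about 1 in 20 groups. Hmgcs1 was at 119 CPM in replicate 2 of the SCA7 AAV-shA4 mice, with the other 4 mice between 99.6 and 102 CPM. Cyp46a1 was at 49.4 CPM in replicate 1 of the same group, with the other 4 mice between 36.9 and 39.3 CPM.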

How the results depend on the processing

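The number of members called was the same or within 1.5 times with DESeq2's size factors, DESeq2's Wald test, no filter on low counts, all gene types, and all 20 libraries in 1 fit, in each of the 5 comparisons. A fold limit of 1.3 moved it from 15 to 7 for untreated WT mice of 25 against 9 weeks, from 6 to 0 for SCA7 AAV-shSCR against WT and from 5 to 0 for SCA7 AAV-shA4 against WT. Leaving out 1 library gave 12 to 19 members, 5 to 8, and 2 to 8 in these comparisons, and 0 in both comparisons of AAV-shA4 with its control. Of 44 fold changes of members and other pathway genes that were followed, none changed sign under any alternative; besides the fold limit, calls were lost for Scd2 with AAV-shA4 without a filter (adjusted p = 0.0539) and for Srebf1 by week with all 20 libraries in 1 fit (adjusted p = 0.241). With the replicate number as a block, in place of the unpaired fit, the count by week was 10 with 1502 of all genes in place of 3419, the call of Scd2 with AAV-shA4 was lost, and the counts were 6, 5, 0 and 0 in the other comparisons. By week it lost Fdft1, Ebp, Srebf1, Pmvk and Sc5d. For AAV-shA4 in WT mice edgeR called 10 of all genes, and the alternatives 130 (DESeq2), 75 (block), 45 (20 libraries), 37 (no filter) and 21 (all gene types). The cause of these differences was not tested. Idi1 and Fdps, with few reads, were measured least precisely.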
